A study of Arabidopsis thaliana with 9 samples.

Results

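RNA sequencing of Arabidopsis thaliana ntrc mutant plants was compared between young rosette leaves of adult plants and seedlings, which took 6 of the series' 9 libraries, 3 in each group. The adult plants were 8 weeks old and grew in soil in short days, and their leaves were taken 2 hours after the lights came on, with leaves of 3 plants in each library. The seedlings were 6 days old and grew in continuous light on MS medium, which supplies mineral salts, and the labels name neither an organ nor the number of seedlings in a library. Light was 125 µE per square metre and second for both. The other 3 libraries of the series are of wild type seedlings, also 6 days old and at 125 µE, and are used only where named. The 6 libraries compared carry the ntrc mutation, described without an allele or line. Adult wild type leaves are not analysed here, so no effect of the mutation in leaves can be given. Libraries were chosen by their column names, and loci by being nuclear, which kept 32548 of 32833 loci and left out 285 of the plastid and mitochondrial genomes.

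NTRC is a plastid enzyme that joins an NADPH-thioredoxin reductase to a thioredoxin domain and keeps the 2-Cys peroxiredoxins of the chloroplast reduced. Iron in plants enters through the root surface, where the transcription factor FIT and its bHLH partners switch on the ferric reductase FRO2 and the transporter IRT1 when iron is short. Leaves spend most of that iron on photosynthesis and keep the surplus in ferritin.

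Stage went together with organ, age, light period, time of harvest, growth medium and library kit, and these cannot be told apart. Per the labels' protocols the adult leaves went through the TruSeq Stranded Total RNA kit with Ribo-Zero, which removes ribosomal RNA, and the seedlings through the Illumina Stranded mRNA Prep, although polyA RNA is the labelled molecule of both. The deposited values, read as log2(FPKM + 1), had been scaled separately by stage: the upper quartile was 2.44 in each adult library and 3.70 in each seedling library. FPKM counts fragments relative to the length of the transcript and to the size of the library, and the table holds no counts, so the depth is unknown. Values were therefore compared as ranks among the nuclear loci of a library. A percentile of 100 is the highest nuclear locus of a library, and a locus listed at 0 stands at 13.0 to 15.3, where an exact 0 can also be a failed estimate. For tests, each rank was given the mean log2 value of that rank over the 6 libraries, and the log2 differences below are on that mapped scale, adult leaves minus seedlings, with a standard error (SE) from limma over 3 and 3 libraries. Plastid and mitochondrial loci took 48.3% to 50.6% of the summed FPKM in adult libraries and 0.350% to 0.561% in ntrc seedlings. Spearman correlations over nuclear loci, whose points share libraries, were 0.972 to 0.974 among adult libraries, 0.980 to 0.983 among seedling libraries and 0.866 to 0.873 between the stages. The first ntrc seedling library stood apart in genes of iron deficiency, at levels close to wild type seedlings, and the iron genes whose difference moved most or whose call changed are also given without it. The labels call the libraries of a group biological replicates.

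NTRC itself (AT2G41680, chr2:17376155-17379059 of TAIR10.1; genes were located in this RefSeq annotation, and the submitters' notes name TAIR10) stood at percentiles 92.4, 92.1 and 92.6 in the adult libraries and 80.3, 83.3 and 81.5 in the ntrc seedling libraries. In wild type seedlings its mean percentile was 97.9, above all 6 ntrc libraries. The log2 difference between ntrc leaves and ntrc seedlings was 1.22 (SE 0.080, adjusted p = 6.9e-06), and the gene overlaps its neighbour AT2G41670. Against wild type seedlings the same adult leaves were lower by 1.73 on the log2 scale, and on the deposited scale with no ranking the ntrc leaves were lower than the ntrc seedlings by 0.16.

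A locus was called different where limma gave a Benjamini-Hochberg adjusted p below 0.05 over all 17235 loci tested and a log2 difference of at least 1 in size. This held for 1837 loci that were higher in adult leaves (10.7% of those tested) and 2085 that were lower (12.1%), against a median difference over all tested loci of -0.024. The groups did not overlap at 75.9% of tested loci, so separation of the groups alone is common here and the difference in size is what sets a gene apart. On the deposited scale with no further scaling the median locus was lower by 1.31 in adult leaves, and 93.9% of calls were then lower against 53.2% with ranks, so every direction given here is relative to the other nuclear loci of a library. Where a gene belongs to a cell type, fewer cells of that type and less RNA per cell cannot be told apart in such bulk samples. Of the tested loci 5685 overlap another annotated locus. No source used here says if strand was used in counting, so the values of such neighbours are uncertain.

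**Figure D1:**
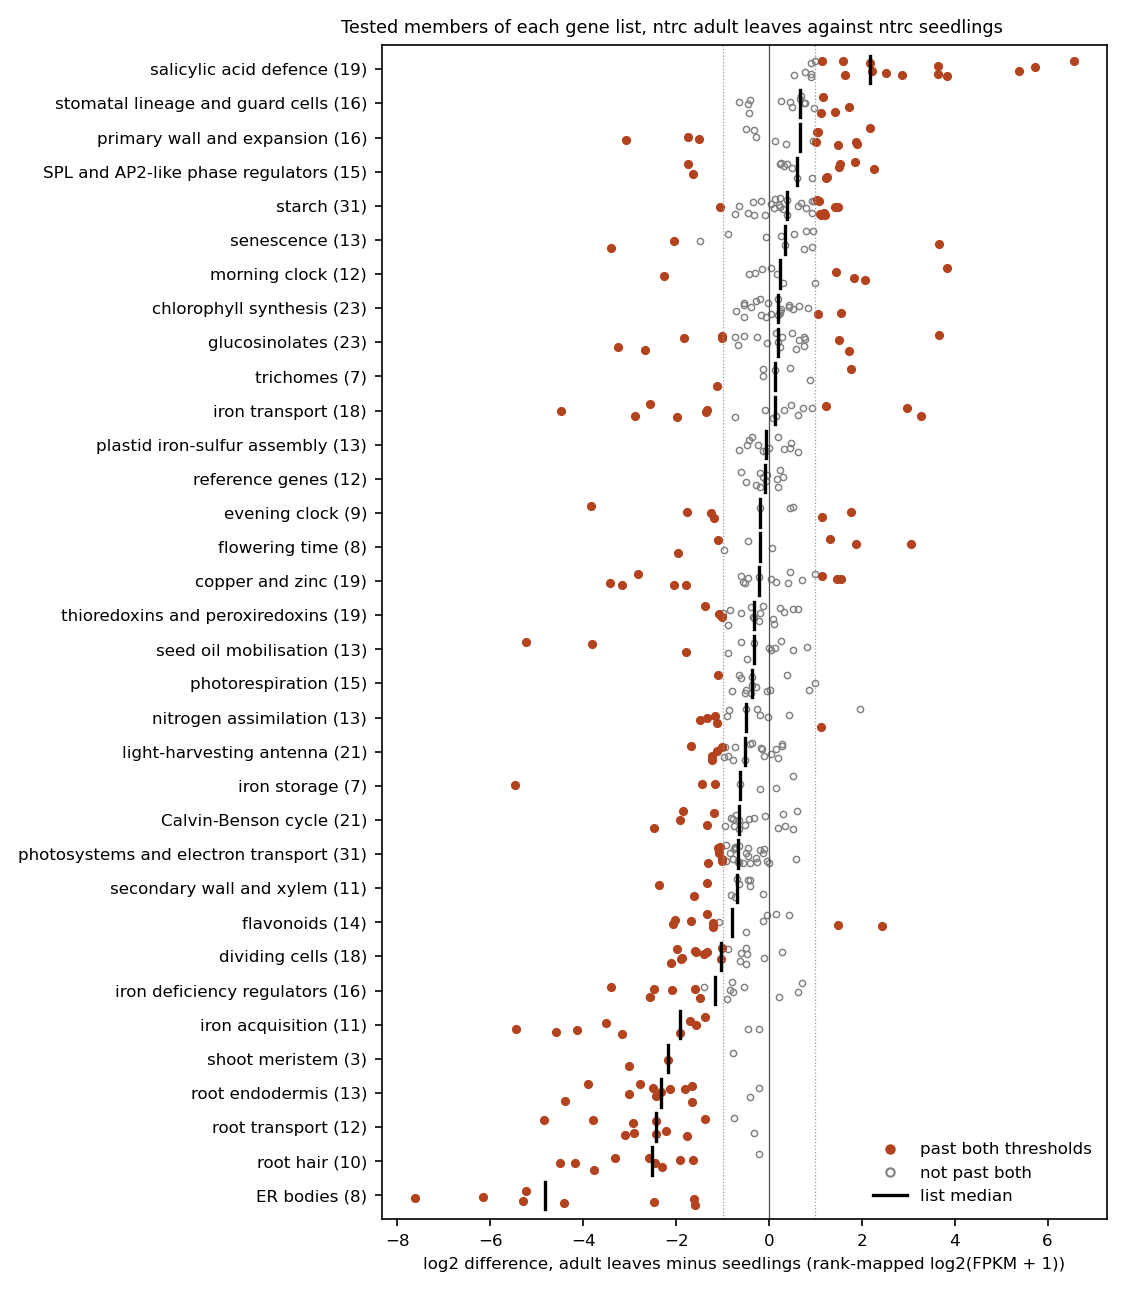
Each point is 1 tested member of a gene list, placed by its log2 difference between ntrc adult leaves and ntrc seedlings (horizontal axis, rank-mapped scale, positive where higher in adult leaves). Filled points passed both thresholds, black bars are list medians, and the number tested is in brackets (points of genes listed at 0 in all libraries of a stage are fitted values); among these lists of at least 3 tested members, ER bodies, root hair, root transport and root endodermis have the lowest medians and salicylic acid defence the highest, 2.18.

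The kind of RNA moved with the kit. Of the tested small nuclear, small nucleolar and transfer RNA loci, 240 of 243 were higher in adult leaves and none was lower, with a median log2 difference of 3.19. MicroRNA loci were higher in 21 of 25 and long non-coding RNA loci in 120 of 271. Protein-coding loci gave 1424 higher and 2048 lower of 16603. All 107 tested nuclear loci that are at least 50% identical to an organelle genome were higher in adult leaves, 106 of them on chromosome 2 between positions 3239693 and 3503608 of TAIR10.1, where the nuclear genome holds a copy of mitochondrial DNA. The largest difference by the naming rule belonged to AT7SL-1 (chr4:1317499-1319179), which the annotation lists as protein coding and names 7SL RNA, the RNA of the signal recognition particle. It stood at 99.9 in each adult library and was listed at 0 in all 3 ntrc and all 3 wild type seedling libraries. The part of the kits in these calls was not tested.

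**Figure D2:**
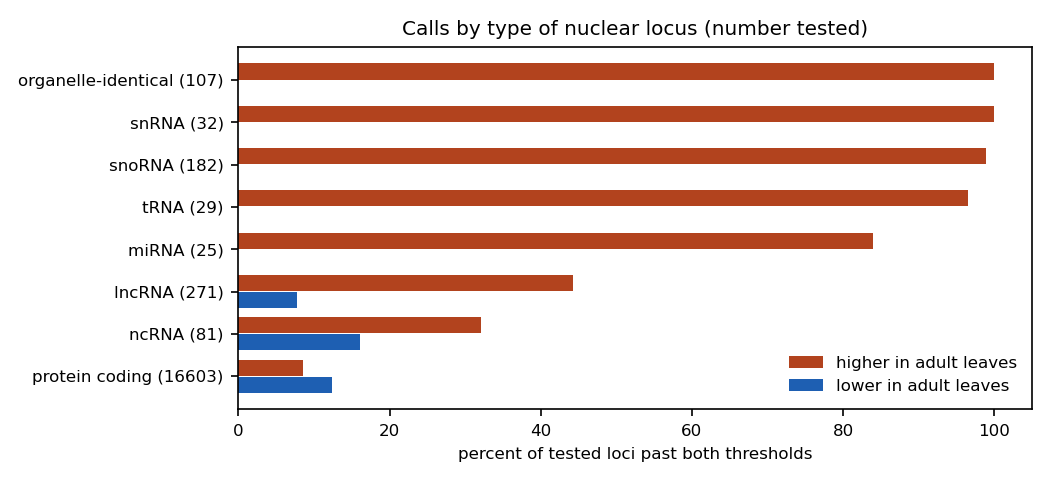
Bars give the percent of tested nuclear loci of each annotated type that were called higher (red) or lower (blue) in ntrc adult leaves, with the number tested in brackets. Small nuclear, small nucleolar and transfer RNA loci and loci with organelle-like sequence are almost all red, long non-coding RNA is red for 44.3%, and protein-coding loci have more calls in blue.

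Genes of iron uptake were far lower in adult leaves. Of 13 iron acquisition genes, 11 were tested, 9 were lower (81.8% against 12.1% of all loci) and none was higher. Their median log2 difference was -1.91 against -0.024 over all loci. IRT1 (chr4:10707344-10709015), the main iron transporter of the root surface, stood at 13.8, 13.0 and 29.4 in the adult libraries, 2 of which list it at 0, and at 97.8, 92.1 and 94.7 in the seedling libraries. The groups lay far apart, and the log2 difference was -5.45 (SE 0.44, adjusted p = 0.000154). FRO2 (chr1:208995-213082), the ferric reductase that feeds IRT1, stood at 34.6, 38.5 and 35.5 in leaves and at 95.8, 82.6 and 87.0 in seedlings, a difference of -4.14 (SE 0.51, adjusted p = 0.00102). CYP82C4, which hydroxylates a coumarin on the way to the iron-binding sideretin, was listed at 0 in all adult libraries and stood at 97.5, 79.8 and 87.3 in seedlings. PDR9, a transporter that exports coumarins, differed by -3.52 (SE 0.26) and F6'H1, which makes their precursor, by -3.16 (SE 0.60). AHA2, a proton pump that acidifies the soil around the root, remained among the highest genes of the leaves, at 95.3 to 96.1 against 98.1 to 98.6, and was lower by 1.39 (SE 0.12). COSY and BGLU42 were not called, with differences of -0.44 and -0.22. The 2 members below the filter, IRT2 and S8H, were listed at 0 in all adult libraries and stood at up to 67.3 and 90.6 in seedlings.

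Fewer of the regulators of the iron deficiency response were called, and the seedling libraries spread widely for several of them. Among the 16 tested of 19 regulators 6 calls were lower (37.5% against 12.1% of all loci) and 0 were higher, and the median difference was -1.16. bHLH39, a partner of FIT, was listed at 0 in all adult libraries and stood at 88.7, 57.6 and 53.8 in ntrc seedlings. Its tandem neighbour bHLH38 stood at 34.6, 31.2 and 14.6 in leaves and 92.2, 58.0 and 51.6 in seedlings, and its difference of -2.59 (SE 0.95) was not called at an adjusted p of 0.0589. In the 4 genes of this subgroup, in FIT and in the IMA peptide genes, the first ntrc seedling library stood well above the other two and close to wild type seedlings, whose mean percentile was 92.7 for bHLH38 and 90.7 for bHLH39. In NTRC itself that library stood at 80.3, beside 83.3 and 81.5 in the other two. bHLH100 differed by -3.4 (SE 0.90, adjusted p = 0.0208), bHLH101 by -2.10 (SE 0.63, adjusted p = 0.0299), and FIT itself by -1.48 (SE 0.40, adjusted p = 0.0179), from 49.9, 41.9 and 51.0 in leaves to 78.9, 59.6 and 63.1 in seedlings.

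BTSL1, an E3 ligase that holds FIT in check in roots, was lower by 2.48 (SE 0.28), and bHLH115, which acts upstream of the bHLH38 subgroup, was lower by 1.6 (SE 0.069). The IMA peptides, short phloem-borne signals of iron need, gave no call: IMA2 differed by -1.41 (SE 0.82), IMA3 by 0.62 (SE 0.70), and IMA1 lay below the filter, at 45.1 to 52.8 in leaves and at 78.5, 45.4 and 46.7 in seedlings. BTS, the E3 ligase of this pathway that leaves also express, stood at 89.3, 90.4 and 89.4 in leaves and 92.5, 85 and 85.2 in seedlings, with a difference of 0.21 (SE 0.26). Without the first ntrc seedling library the regulators had 7 lower and 1 higher. The higher one was IMA3 at 1.32, and bHLH38 was called at -1.45, as it was without the third at -3.11. The calls of bHLH100, bHLH101 and FIT held there with smaller differences of -2.31, -1.33 and -1.05, and IMA2 was at -0.51. Among the other iron genes OPT3 became a call at 1.12, while IRT1 was at -4.83, FRO2 at -3.47, F6'H1 at -2.46, NAS1 at -4.05, VTL5 at -5.44, VTL2 at -0.19 and BGLU42 at 0.15. Leaving out any 1 adult library instead left 3, 2 and 3 lower calls among the regulators, with bHLH39, bHLH100 and bHLH101 no longer called, and FIT was lost too without the second, at -1.28. In each of the 6 fits that leave out 1 library the same 9 iron acquisition genes were called lower.

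With wild type seedlings in place of ntrc seedlings, a comparison that shares the adult libraries, 12 of 19 tested regulators and 12 of 13 tested acquisition genes were lower. In the ntrc comparison these were 6 of 16 and 9 of 11. Iron storage had 2 higher and 1 lower of 5 tested genes against wild type seedlings, with a median of 0.55. FER4 was higher by 1.41 and VTL2 by 1.14, and VTL5 was lower by 5.05. FER2 and VTL1, both called lower in the ntrc comparison, were not tested there, so the counts and medians of the 2 comparisons cover different genes. In the ntrc comparison FER4 was at 0.52 and VTL2 at 0.15. Against wild type seedlings 1776 of all 17194 tested loci were higher and 1936 lower.

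**Figure D3:**
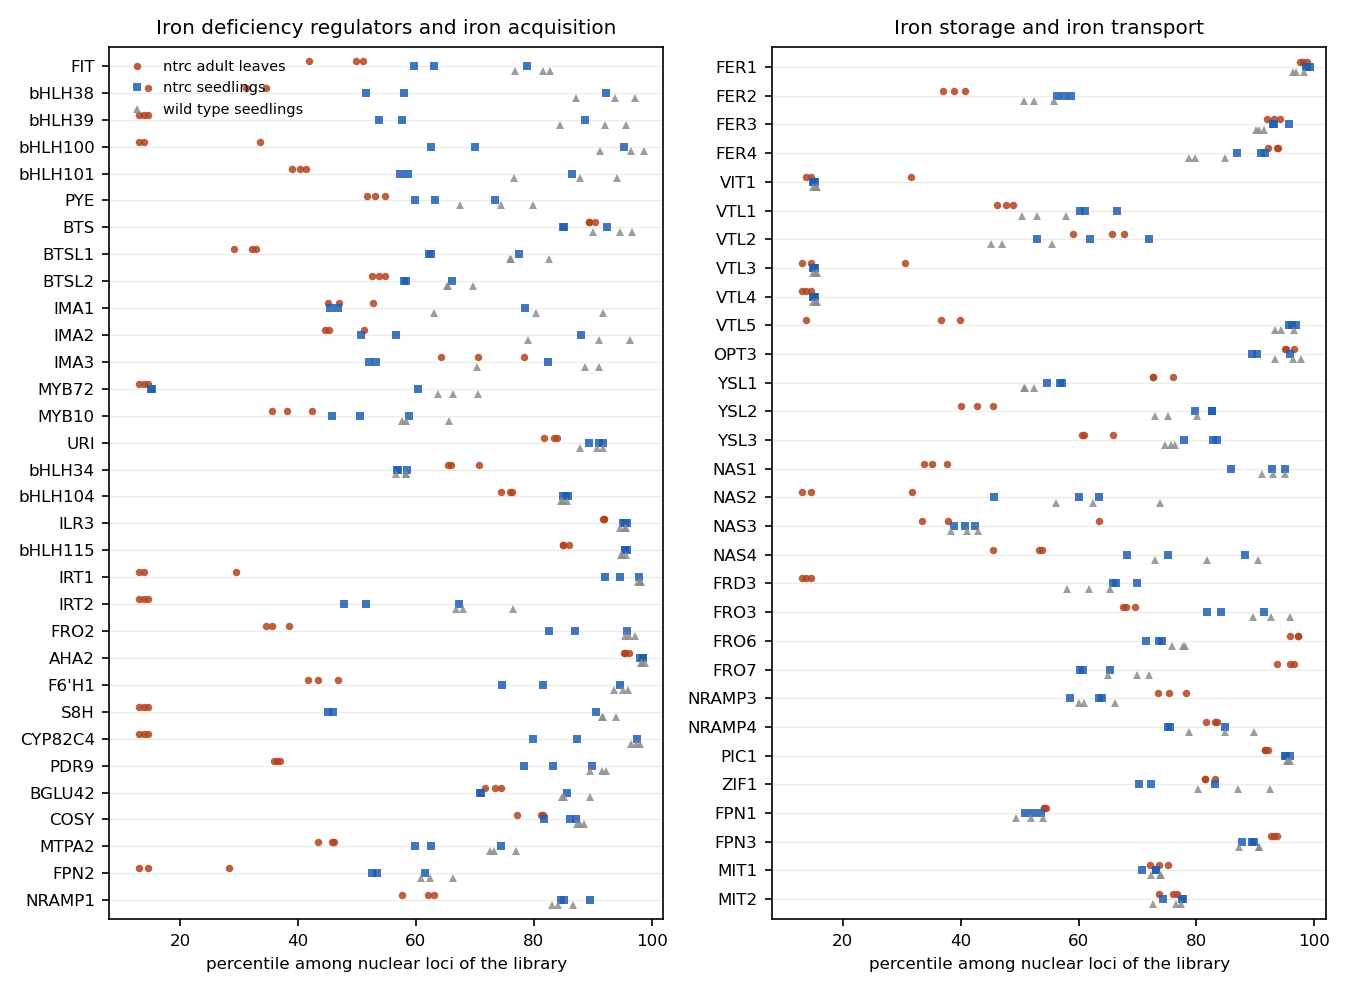
Each marker is 1 library's percentile among its nuclear loci (horizontal axis) for the iron genes named on the vertical axis, in ntrc adult leaves, ntrc seedlings and wild type seedlings. IRT1, FRO2 and NAS1 separate leaves from seedlings, FRO6 and FRO7 separate them the other way, and the first ntrc seedling library overlaps wild type for bHLH38, bHLH39 and S8H.

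Iron storage genes were lower or not called, and iron transport genes differed in both directions. VTL5 (chr3:9174398-9175866), a relative of the vacuolar iron transporter, stood at 13.8, 36.7 and 39.9 in leaves and at 95.7, 96.3 and 96.9 in seedlings, a difference of -5.46 (SE 0.15, adjusted p = 1.04e-07). VTL1, a vacuolar iron carrier of the same family, was lower by 1.17 (SE 0.13), and without ntrc seedling library 3 by 0.998 with no call. FER2, the ferritin of seeds, was lower by 1.44 (SE 0.10) at percentiles of 37.0 to 40.8 against 56.4 to 58.8. The ferritins of leaves stood high in both stages: FER1 at 98.8, 97.5 and 98.1 against 98.6, 98.7 and 99.3, with a difference of -0.63 (SE 0.36), FER3 at -0.20 (SE 0.19) and FER4 at 0.52 (SE 0.17). VTL2 differed by 0.15 (SE 0.37). In all, 3 of the 7 tested storage genes were lower (42.9% against 12.1% of all loci) and none was higher.

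FRO6 and FRO7 are neighbours on chromosome 5, and FRO7 is the ferric reductase of the chloroplast. FRO7 (chr5:20205302-20208777) stood at 95.8, 93.7 and 96.6 in leaves and at 65.4, 60.8 and 60.2 in seedlings, a difference of 3.28 (SE 0.22, adjusted p = 2.25e-05). FRO6 (chr5:20201037-20204595) stood at 97.2, 95.8 and 97.2 against 73.7, 71.5 and 74.1, a difference of 2.96 (SE 0.15, adjusted p = 3.19e-06). The order was the reverse of that of FRO2, the root member of the same family. YSL1, which moves iron bound to nicotianamine in leaves, was also higher, by 1.23 (SE 0.097). NAS1, an enzyme that makes nicotianamine, stood at 37.7, 35.2 and 33.7 in leaves and at 95.0, 85.9 and 92.8 in seedlings, a difference of -4.47 (SE 0.35). YSL2 at -2.88 (SE 0.12) and FRD3, a citrate exporter of the root vascular tissue that was listed at 0 in all adult libraries, were lower too. Together 6 of 18 tested transport genes were lower (33.3% against 12.1% of all loci) and 3 higher (16.7% against 10.7%), and the median was 0.12. OPT3, an iron transporter of the phloem, stood at 95.0, 96.6 and 95.2 in leaves and 95.8, 89.4 and 90.2 in seedlings, with a difference of 0.74 (SE 0.36) that was not called.

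Among 19 tested copper and zinc genes 3 were higher (15.8% against 10.7% of all loci) and 5 lower (26.3% against 12.1%). CSD1 and CSD2, copper and zinc superoxide dismutases of cytosol and plastid, were higher by 1.47 (SE 0.17) and 1.14 (SE 0.14), and CSD2 was at 0.999 with no call without ntrc seedling library 2. FSD1, an iron superoxide dismutase, was lower by 2.83 (SE 0.29), while FSD2 and FSD3 were not called, at -0.60 and -0.21. FSD1 stood at 95.3, 96.6 and 93.6 in leaves and 99.2, 99.6 and 99.6 in seedlings. COPT1, a copper importer, was higher by 1.55 (SE 0.14) and COPT2, a copper importer of roots, lower by 3.17 (SE 0.079). ZIP2, a transporter of zinc and manganese, was listed at 0 in all adult libraries and stood at 69.8, 81.0 and 86.9 in seedlings. All 13 genes of plastid iron-sulfur cluster assembly were tested and none was called, with differences from -0.65 for NEET to 0.63 for SUFB.

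Most tested markers of root cells were lower in the leaf libraries, where 6 of 13 root hair, 3 of 14 endodermis, 3 of 17 root transport and 4 of 9 root tip genes were listed at 0 throughout. Of the root hair list 10 of 13 members were tested and 9 were lower, of the endodermis list 13 of 14 and 11, of the root transport list 12 of 17 and 10, and of the root tip list 2 of 9 and 1. None of the 37 tested root genes was higher. Over all tested loci 12.1% were lower and 10.7% higher. The medians were -2.51, -2.32, -2.44 and -1.31, and -2.30, -2.13, -2.44 and -1.31 without genes listed at 0 in all libraries of a stage. CASP1, a scaffold of the Casparian strip, stood at 13.8, 37.9 and 37.1 in leaves and at 91.8, 90.2 and 91.8 in seedlings, a difference of -4.38 (SE 0.12). PER64, a peroxidase of the same strip, differed by -3.91 (SE 0.092). TIP2;3, an ammonia-permeable aquaporin of roots, differed by -4.85 (SE 0.15), PRP3, a cell wall protein of root hairs, by -4.49 (SE 0.098), and PIN2, the auxin exporter of the root epidermis, by -3.10 (SE 0.084). SHR and SCR, which shape the endodermis but are also active in leaves, were not called, at -0.41 and -0.22. On the deposited scale, which was set separately for each stage, the summed FPKM of the root hair list was 0.541 to 2.13 in leaves and 138 to 156 in seedlings, and that of the endodermis list 8.58 to 9.68 and 157 to 173. The root transport list summed to 17.7 to 20 and 267 to 412, and the root tip list to 1.71 to 2.90 and 25.7 to 27. These root markers moved with every iron gene that was lower in leaves, and their part in those calls was not tested.

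Photosynthesis genes were at the very top of both stages, and their order depended on what else was ranked. The 21 tested light-harvesting genes had a median percentile of 99.9 in each of the 6 libraries. Ranked among all nuclear loci, 5 of them were lower in leaves (23.8% against 12.1% of all loci) and none higher, with a median of -0.51. Ranked among protein-coding loci alone 1 was lower, LHCB6 at -1.13, and under median ratio scaling none was lower and LHCB2.1 was higher at 1.01. The photosystem list gave 7 lower of 31 by the first ranking, 1 by the second and none by the third, and the Calvin-Benson list 5, 1 and 1 of 21, with 1 higher in the third. By the first ranking these were 22.6% and 23.8% lower, against 12.1% of all loci. Over all loci 1852 of 17074 were lower by the second ranking and 2090 of 17235 by the third. Without the first ntrc seedling library 8 light-harvesting genes were lower by the first ranking, and without the first adult or the second ntrc seedling library 4 photosystem genes were. LHCB1.3 and RBCS1A, a subunit gene of the light-harvesting complex and one of Rubisco, fell by 1.22 and 1.86 in the first ranking, tied at 0 in the second and were at 0.55 and 0.22 in the third. The 4 RBCS genes were called, lower by 1.17 to 1.91, in the first ranking alone. The 20 LHCA and LHCB genes tested ran from -1.67 for LHCB6 to 0.29 for LHCB7, and LHCB1.5 was listed at 0 in 5 of 6 libraries, which near-identical copies in this family make uncertain. CP12-3, a regulator of the cycle, was lower in all 3 rankings, at 50.6, 53.7 and 50.4 in leaves and 84.4, 85.1 and 85.9 in seedlings, a difference of -2.49 (SE 0.096).

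Of 15 photorespiration genes 1 was lower, 6.67% against 12.1% of all loci, the plastid carrier DIT1 at -1.09. By protein-coding ranks DIT1 was no longer called, and GLDP1 and GLDP2, proteins of the glycine decarboxylase complex, were higher at 1.04 and 1.12. Chlorophyll synthesis had 2 higher of 23, PORA and HEMA1, which is 8.7% against 10.7% of all loci. By protein-coding ranks or by median ratio scaling 3 were higher, as CHLH was then called too. PORA, a light-dependent reductase of the greening seedling, stood at 53.5, 59.2 and 54.9 in leaves and 30.8, 36.5 and 35.0 in seedlings. Its difference was 1.55 (SE 0.13), and HEMA1, the first enzyme of the pathway, differed by 1.05 (SE 0.15). Among 19 thioredoxin system genes 3 were lower, 15.8% against 12.1% of all loci, and 2 by protein-coding ranks or by median ratio scaling. TRXy1 was lower by 1.37 (SE 0.092), NTRA by 1.08 (SE 0.064), and 2CPB, a 2-Cys peroxiredoxin that NTRC reduces, by 1.01 (SE 0.067). Its twin 2CPA was at -0.99 (SE 0.076), just short of the minimum difference, and 2CPB itself was not called without adult library 1 or 2 or ntrc seedling library 3, at -0.97 to -0.995.

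The cell division list had 10 lower calls in leaves (55.6% against 12.1% of all loci) and the seed oil list 3 (23.1%). By protein-coding ranks 8 cell division genes were lower, and 8 of the 10 calls held in every fit without 1 library. When loci that overlap another or are organelle-identical were left out, 4 of 10 remaining cell division genes were lower, with a median of -0.76. Of 18 cell division genes none was higher and the median was -1.03, and the largest differences were those of CDC20.1, an activator of mitotic exit, at -2.12 (SE 0.15), KNOLLE, the syntaxin of the cell plate, at -1.97 (SE 0.090), and the mitotic kinase CDKB2;1 at -1.90 (SE 0.078). KNOLLE, which was not among those 10 remaining genes, stood at 63.2, 62.1 and 66.2 in leaves and 88.3, 89.2 and 89.4 in seedlings. In contrast the replication genes MCM2, MCM5, PCNA1 and PCNA2 were not called, at -0.10 to -0.60. KNAT6 was lower by 2.17 (SE 0.090), and KNAT1, another homeobox gene of the shoot tip, was listed at 0 in all adult libraries and stood at 76.6, 73.5 and 72.5 in seedlings; 8 of 11 shoot meristem genes lay below the filter. ICL, isocitrate lyase, which with MLS turns stored oil into sugar, was listed at 0 in all adult libraries and stood at 94.2, 95.3 and 94.4 in seedlings. MLS was lower by 3.81 (SE 0.13) and ACX2, an enzyme of fatty acid breakdown, by 1.79 (SE 0.11), while the other 10 tested genes of oil use were not called. OLEO2, an oil body protein, was listed at 0 in all adult libraries and EM6, an embryo protein, was lower by 2.19 (SE 0.18), the 2 tested of 14 seed reserve genes.

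Clock genes differed in both directions. Leaves were taken 2 hours after the end of a night, and seedlings grew in continuous light. PRR9 (chr2:19232607-19235179), a repressor that peaks in the morning, stood at 92.0, 92.2 and 93.1 in leaves and at 45.6, 47.7 and 45.4 in seedlings, a difference of 3.84 (SE 0.086, adjusted p = 2.25e-08). LNK1 was higher by 2.07 (SE 0.099), LNK3 by 1.82 (SE 0.099) and PRR7 by 1.44 (SE 0.11), and RVE1 was lower by 2.26 (SE 0.13). CCA1 and LHY, the dawn transcription factors at the core of the clock, stood at 93.9 to 95.7 and 89.2 to 92.4 in leaves and at 92.9 to 93.9 and 92.3 to 94.2 in seedlings, and neither was called, at 0.31 (SE 0.12) and -0.44 (SE 0.15). In all 4 of 12 morning genes were higher (33.3% against 10.7% of all loci) and 1 was lower (8.33% against 12.1%).

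Of the evening genes 9 of 12 were tested, 4 were lower (44.4% against 12.1% of all loci) and 2 higher (22.2% against 10.7%). ELF4, a subunit of the evening complex, stood at 42.2, 13.0 and 14.6 in leaves, 2 of them listed at 0, and at 87.7, 86.5 and 86.5 in seedlings, a difference of -3.84 (SE 0.17). LUX and ELF3, the other members of that complex, were lower by 1.77 (SE 0.12) and 1.18 (SE 0.11). TOC1 (chr5:24674963-24678550), the repressor of the early night, stood at 68.6, 67.8 and 67.2 against 83.6, 85.3 and 85.3, a difference of -1.24 (SE 0.074). GI, which peaks in the afternoon and links the clock to flowering, went the other way, at 82.5, 80.8 and 81.9 in leaves and 55.2, 59.5 and 56.0 in seedlings, a difference of 1.76 (SE 0.10). CHE, a repressor of CCA1, was higher by 1.14 (SE 0.15).

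Evening genes are known for the evening element AAAATATCT, a site bound by CCA1 and its relatives. It was searched on both strands from 250 bases before to 50 bases after the annotated start, and it was found in 5 of 12 evening genes, 1 of 12 morning genes and 3.10% of the 16603 tested protein-coding genes. Among loci higher in leaves 73 of 1424 had it, 5.13%, and among those lower 68 of 2048, 3.32%. TOC1 and LUX have 1 match each, 151 and 53 bases before the start, while ELF4, ELF3 and GI have none in this window. The 250 bases before the start of TOC1 (chr5:24674713-24674962, plus strand) and LUX (chr3:17182792-17183041, plus strand) follow, from the RefSeq TAIR10.1 genome, with the match in capitals.
TOC1: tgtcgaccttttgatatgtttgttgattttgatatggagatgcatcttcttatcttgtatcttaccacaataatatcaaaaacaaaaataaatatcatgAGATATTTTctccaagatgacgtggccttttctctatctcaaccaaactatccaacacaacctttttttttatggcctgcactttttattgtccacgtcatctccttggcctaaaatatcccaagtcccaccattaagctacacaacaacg
LUX: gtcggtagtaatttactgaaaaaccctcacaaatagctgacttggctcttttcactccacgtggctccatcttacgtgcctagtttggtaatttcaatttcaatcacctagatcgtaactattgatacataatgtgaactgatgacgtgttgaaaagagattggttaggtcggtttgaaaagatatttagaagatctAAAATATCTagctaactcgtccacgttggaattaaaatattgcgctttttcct
The G-box CACGTG, whose letters cannot overlap those of the evening element, was found in 9 of 12 morning genes, 2 of 12 evening genes and 9.11% of all tested protein-coding genes.

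The change from juvenile to adult growth is timed by miR156 and miR172. miR156 falls with age and represses SPL genes, which promote adult leaves and flowering, and miR172 rises with age and represses the AP2-like flowering repressors. The mature miRNAs and their best matching sites follow, read from the RefSeq TAIR10.1 genome. In the miRNAs capitals mark the seed, bases 2 to 8, and in the sites capitals mark bases that match the exact complement of the miRNA. Every other base counts as a mismatch, also where G and U could pair.
miR156a-5p: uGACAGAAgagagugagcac
SPL9: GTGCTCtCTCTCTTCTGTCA
SPL3: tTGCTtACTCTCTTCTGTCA
SPL5: ccGCTCtCTCTCTTCTGTCA
miR172a: aGAAUCUUgaugaugcugcau
TOE2: ATGCAGCATCATCAgGATTCT
SMZ: tTGCAGCATCATCAgGATTCc
TOE3: tgGCAGCATCATCAgGATTCT
The SPL9 site lies in a coding exon (chr2:17589066-17589085, plus strand) with 1 mismatch, and SPL2, SPL6, SPL10, SPL11, SPL13A and SPL15 have the same letters in a coding exon. The SPL3 site (chr2:14305878-14305897, plus strand, 2 mismatches) and the SPL5 site (chr3:5140598-5140617, minus strand, 3 mismatches) lie in an exon outside the coding part. The TOE2 site (chr5:24210889-24210909, plus strand, 1 mismatch), the SMZ site (chr3:20373774-20373794, minus strand, 3 mismatches) and the TOE3 site (chr5:26802175-26802195, minus strand, 3 mismatches) lie in coding exons.

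SPL3 (chr2:14305001-14306072) stood at 80.9, 80.3 and 77.4 in leaves and at 48.4, 59.4 and 37.1 in seedlings, a difference of 2.25 (SE 0.43, adjusted p = 0.00507). SPL9 (chr2:17587169-17589671) stood at 64.3, 64.8 and 65.8 against 43.2, 47.0 and 46.4, a difference of 1.5 (SE 0.10, adjusted p = 8.87e-06). The seedling libraries spread widely for SPL3 and little for SPL9, and neither overlapped the leaves. SPL5 was higher by 1.85 (SE 0.097), SPL4 by 1.54, SPL13A by 1.23, and SPL2, SPL6, SPL10 and SPL11 were not called, at 0.38 to 0.92. The AP2-like repressors split: SMZ was lower by 1.74 (SE 0.12) and TOE2 by 1.63 (SE 0.099), TOE3 was higher by 1.24 (SE 0.10), and AP2, TOE1 and SNZ were not called, at 0.23 to 0.32. In all 6 of 15 tested phase regulators were higher (40% against 10.7% of all loci) and 2 lower (13.3% against 12.1%), and their median was 0.60. Each of the 6 overlaps another annotated locus, so none was among the 7 members that remained when overlapping loci were left out, 1 of which was lower. Of 7 miR156 and miR172 loci only MIR156C was tested, at -0.73 (SE 0.14) with no call. MIR172B stood at 42.1, 43.4 and 50 in leaves and was listed at 0 in all seedling libraries, and libraries of this kind read precursors, not mature miRNAs.

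FLC, the repressor of flowering that cold silences, stood at 41.5, 46.5 and 46.3 in leaves and 68.0, 74.3 and 70.3 in seedlings, a difference of -1.95 (SE 0.15). SOC1, which FLC represses and SPL9 promotes, stood at 75.2, 70.4 and 75.7 against 54.6, 55.9 and 54.9, a difference of 1.32 (SE 0.11). AGL24, its partner, was higher by 3.05 (SE 0.11) and SVP, a repressor, by 1.87 (SE 0.099). Repressors and promoters both were thus among the 3 higher and 2 lower of 8 tested flowering genes. These calls were 37.5% and 25% of the list, against 10.7% and 12.1% of all loci. FT, the mobile flowering signal, was listed at 0 in all 6 libraries, and none of 8 floral organ genes passed the filter. SAG12, the marker of advanced senescence, was listed at 0 in all 6 libraries as well. Without adult library 1 the 13 tested senescence genes had 4 lower calls, and without adult library 2 or 3 or ntrc seedling library 1 or 2 they had 2 higher calls, or 3 with ranks among protein-coding loci. With all 6 libraries SAG13 was higher, at 88.1, 85.1 and 72.8 in leaves and listed at 0 in all seedling libraries, and SAG21 and ORS1 were lower, by 3.4 (SE 0.30) and 2.05 (SE 0.098). The shares were 7.69% higher and 15.4% lower, against 10.7% and 12.1% of all loci.

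**Figure D4:**
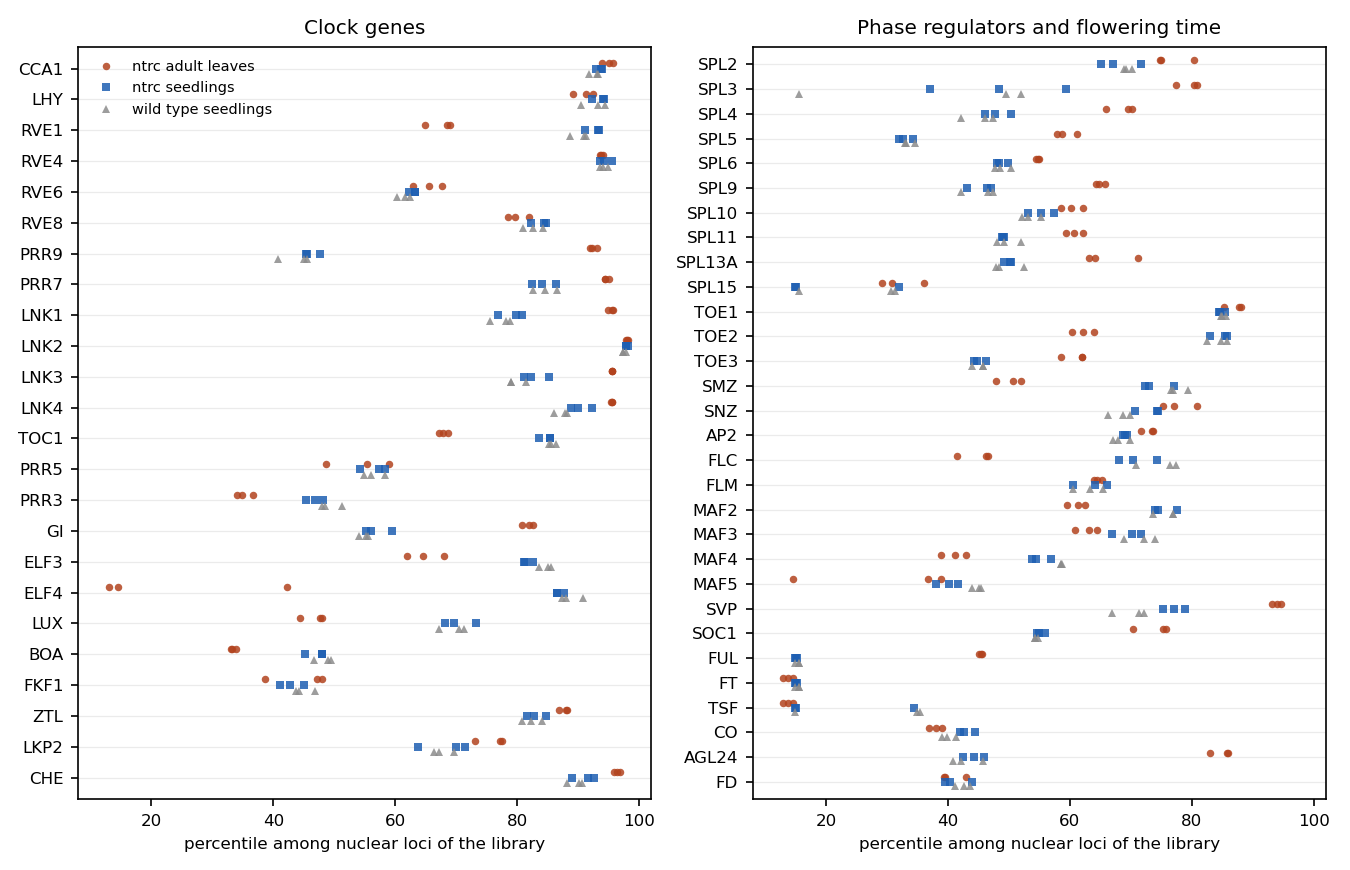
Markers give each library's percentile among its nuclear loci (horizontal axis) for clock genes (left) and for phase regulators and flowering time genes (right), in ntrc adult leaves, ntrc seedlings and wild type seedlings. PRR9, GI, SPL3, SPL9 and AGL24 lie higher in leaves and ELF4, LUX, TOC1, TOE2, SMZ and FLC lower, while CCA1 and LHY nearly coincide.

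Salicylic acid defence was the list with the most members higher in leaves. Of 24 genes 19 were tested, 13 were higher (68.4% against 10.7% of all loci) and none lower, with a median of 2.18, or 1.91 without PR2, which was listed at 0 in all ntrc seedling libraries. PR1, the antimicrobial marker of the response, stood at 93.4, 70.3 and 85.2 in leaves and at 14.9, 31.7 and 15.1 in seedlings, 2 of them listed at 0, a difference of 3.83 (SE 0.57, adjusted p = 0.00211). ACD6 (chr4:8294165-8299195), an ankyrin protein that raises salicylic acid, stood at 99.1, 98.0 and 98.8 against 41.4, 43.7 and 37.5, a difference of 6.57 (SE 0.28, adjusted p = 6.32e-06). PR5, a thaumatin-like protein, differed by 5.37 (SE 0.075) and PR2, a glucanase, stood at 94.9 to 97.4 in leaves. The transcription factors WRKY54 and WRKY70 were higher by 3.63 (SE 0.25) and 3.63 (SE 0.31). The synthesis enzyme ICS1 was higher by 1.14 (SE 0.15), and its regulators SARD1 and CBP60G by 2.87 and 2.23. The receptors NPR1, NPR3 and NPR4 were not called, at 0.99, 0.54 and 0.92. Replicate 2 was the lowest adult library for PR1, PR2, PR5, ACD6, ICS1, SARD1, WRKY54 and WRKY70, and the list had 13 to 16 higher calls without 1 library at a time.

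**Figure D5:**
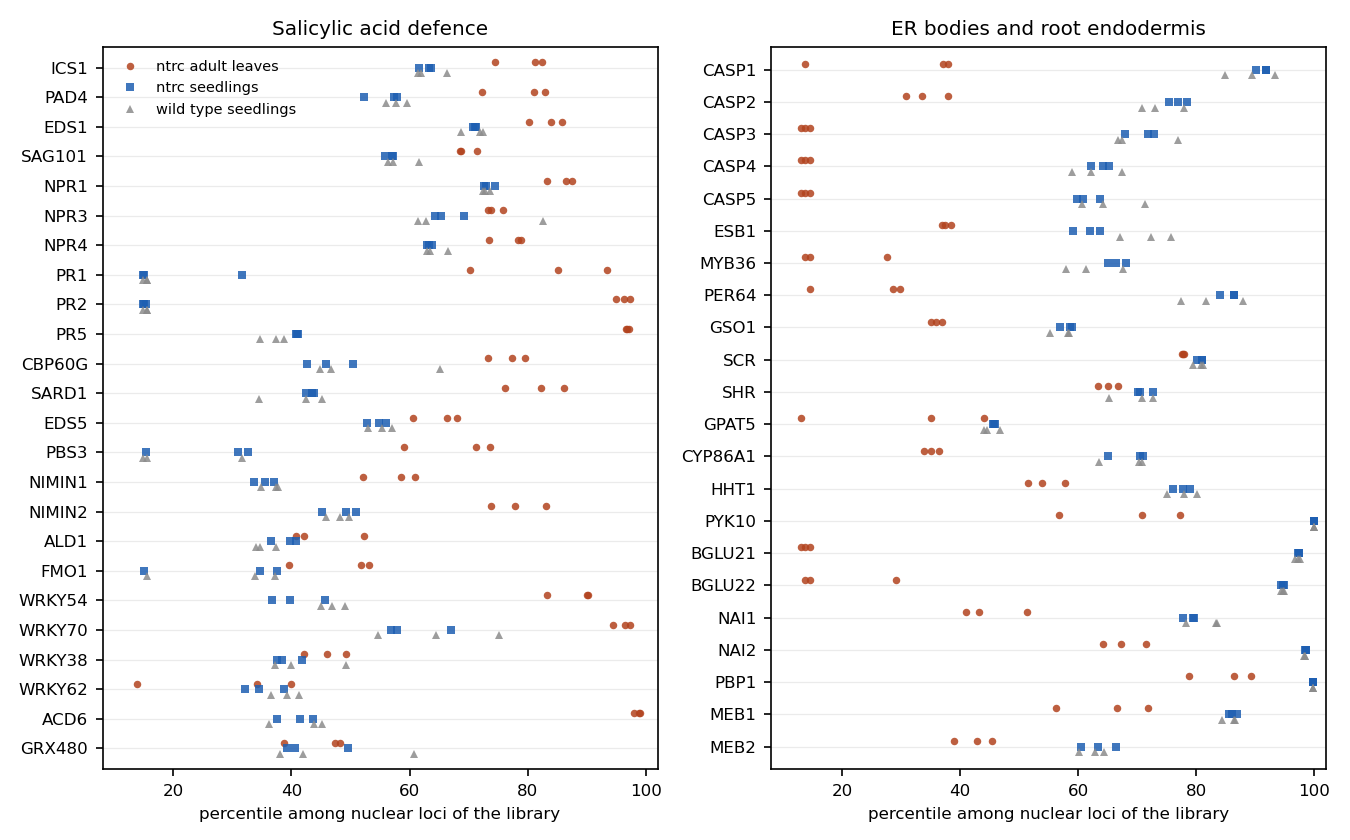
Each marker is a library's percentile among its nuclear loci (horizontal axis) for salicylic acid defence genes (left) and for ER body and root endodermis genes (right), in ntrc adult leaves, ntrc seedlings and wild type seedlings. All 3 leaf libraries lie above the seedlings for PR1 and ACD6, and below them for PYK10 and CASP1.

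The stores of glucosinolate-splitting enzymes differed in kind. ER bodies are compartments of seedlings and roots that hold the beta-glucosidase PYK10, and all 8 tested genes of that list were lower in leaves, with a median of -4.81, or -4.41 without BGLU21, which was listed at 0 in all adult libraries. PYK10 (chr3:2840477-2843781) stood at 77.3, 70.9 and 56.7 in leaves and at 99.9 in each seedling library, a difference of -7.63 (SE 0.38, adjusted p = 2.41e-05). PBP1, which binds PYK10, differed by -5.29 (SE 0.25). In contrast TGG2, a myrosinase of leaf myrosin cells, was higher by 3.65 (SE 0.088), at 99.7 in each adult library against 95.6, 94.5 and 94.9, and TGG1 was at 0.57. Of 23 tested glucosinolate genes 3 were higher (13% against 10.7% of all loci) and 5 lower (21.7% against 12.1%). Lower calls were 3 without adult library 1 or 3 or ntrc seedling library 1 or 3, with ranks among protein-coding loci or with median ratio scaling. In this list the regulator MYB29 and the transporter GTR1 were higher by 1.5 and 1.72, and MAM3, CYP79B3 and CYP79F2, synthesis enzymes, lower by 3.24, 2.66 and 1.83. ESM1, a protein that steers the products of myrosinase, was among the largest differences, at 99.7, 99.6 and 99.7 against 67.1, 61.1 and 61.8, which is 6.52 (SE 0.12).

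Cell wall genes differed in both directions. Of 16 primary wall genes 7 were higher (43.8% against 10.7% of all loci) and 3 lower (18.8% against 12.1%). In every fit without 1 library 3 of the 7 were called higher, and the same 3 lower. EXPA10, an expansin named for leaves, stood at 87.9, 97.8 and 89.8 against 73.4, 71.1 and 69.1, which is 2.18 (SE 0.66, adjusted p = 0.0328), and it was no longer called without any 1 ntrc seedling library, at 2.1 to 2.24. CESA5 and EXPA5 were higher by 1.89 (SE 0.11) and 1.88 (SE 0.088). XTH17, XTH19 and XTH18, wall-modifying enzymes best known from roots, were lower by 3.08, 1.74 and 1.5. The secondary wall list had 3 lower of 11, 27.3% against 12.1% of all loci. These were the xylem proteases XCP1 and XCP2 and the glycosyltransferase FRA8, at -1.61, -1.34 and -2.36, and the cellulose synthases CESA4, CESA7 and CESA8 were not called.

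Stomatal genes had 4 higher of 16, 25% against 10.7% of all loci, and none lower. The higher ones were STOMAGEN, a peptide from the mesophyll that raises stomatal number, at 1.73 (SE 0.13), its counterpart EPF1 at 1.43, MUTE at 1.16 and SDD1 at 1.12. Trichome genes had 1 higher of 7, TRY at 1.77, and 1 lower, CPC at -1.11. Each is 14.3% of the list, near the 10.7% and 12.1% of all loci. Starch genes had 8 higher of 31 (25.8% against 10.7%), 6 of them in every fit without 1 library. The 1 lower (3.23% against 12.1%) was the phosphatase LSF2 at -1.06. Among the higher were GBSS1, the amylose synthase, at 1.48 (SE 0.13), the pyrophosphorylase subunit APL3 at 1.42 (SE 0.11) and the synthase SS2 at 1.2 (SE 0.073). Nitrogen genes had 4 lower of 13 (30.8% against 12.1%) and 1 higher (7.69% against 10.7%). By protein-coding ranks or by median ratio scaling 3 were lower. The 4 include both nitrate reductases, NIA1 and NIA2, at -1.49 and -1.33 and the plastid glutamine synthetase GLN2 at -1.16. The higher one was ASN1, an asparagine synthetase, at 1.11 (SE 0.34). Without adult library 1 or 3, or without ntrc seedling library 1 or 3, ASN1 was not called, at 0.91 to 1.07. Flavonoid genes had 6 lower of 14 (42.9% against 12.1%) and 2 higher (14.3% against 10.7%). The lower ones include the anthocyanin enzymes DFR and LDOX at -2.06 (SE 0.59) and -2.03 (SE 0.46) and the flavonol synthase FLS1 at -1.68. The higher ones were the regulator PAP1 at 2.44 (SE 0.23) and the transferase UGT78D1 at 1.5. Of the 6 lower calls 3 held in every fit without 1 library, and 4 genes were lower without ntrc seedling library 1. DFR was no longer called without adult library 1 or 3 or ntrc seedling library 3, at -1.67, -2.13 and -2.20. PAP1 is known to switch on DFR and LDOX, and here it differed in the opposite direction.

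The remaining genes with the largest differences were of mixed kinds. PCC1, a pathogen and clock responsive gene, and PDF1.2, a defensin of the jasmonate response, stood at 99.5 to 99.7 and 95.2 to 99.6 in leaves and were listed at 0 in all 6 seedling libraries. BXL3, a beta-xylosidase, stood at 99.4 to 99.5 against 35.0 to 38.5, a difference of 7.83 (SE 0.073). EXT3, an extensin, and DR4, a protease inhibitor-like gene, were lower by 7.54 (SE 0.26) and 7.03 (SE 0.11), and MLP34 and MT1B by 6.78 (SE 0.077) and 6.04 (SE 0.13). MT1A, a metallothionein, stood at 93.1 in the first adult library and at 29.0 and 31.9 in the other two, so its difference of -6.51 had an SE of 1.49, and without the first ntrc seedling library it was not called at -6.49. RR3, a cytokinin response regulator, was at the top of the leaf libraries, with a difference of 8.13 (SE 0.066), and overlaps the long non-coding locus AT2G09250. RABE1b and RPL27AB were listed at 0, the former in all ntrc seedling and the latter in all adult libraries, stood at up to 99.5 and 99.1 in the other ntrc group, and overlap a neighbour.

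None of 12 reference genes commonly used for normalization was called. The lowest were the conjugating enzyme UBC9 at -0.60 and the elongation factor EF1A4 at -0.49, and the highest were the actin ACT2 at 0.30 and SAND at 0.25. TIP41, UBC21, GAPC1, YLS8, GAPC2 and UBQ10 lay from -0.29 to -0.03, and ACT8 and PP2AA3 at 0.17 and 0.20. UBQ10 stood at 99.7 in each adult library and at 99.7 to 99.8 in seedlings.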

How the data were processed

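The deposited table holds 1 value for each locus and library, which was read as log2(FPKM + 1). The authors made these log2 FPKM values with tools that include HISAT2, StringTie and FastQC and with the TAIR10 build, per the submitters' processing notes, which give no settings here. Neither log base nor pseudocount is stated in the sources used here, and 0 columns of other series were used. Organellar loci were left out and the nuclear loci of the 6 libraries were ranked and mapped by quantile normalization. Loci among the highest 16000 of at least 3 libraries were tested with limma 3.58.1 in R 4.3.3, with trended and robust variance. No counts were at hand, so depth and counting error are unknown. With 3 libraries a group, a single-gene exact permutation test cannot go below a p of 0.1, so all p-values are limma's, adjusted over all tested loci.

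The 629 members of 38 gene lists and the rule for named genes were chosen with earlier results of these data known. The rule named NTRC, up to 3 called members of a list in each direction, the 8 largest differences in each direction among protein-coding loci with a symbol, the reference genes, and a set of iron, clock, flowering and photosynthesis genes whatever their values. Sequences came from RefSeq, TAIR10.1. Alternatives were other scalings, filters, pseudocounts, thresholds and variance models, a replicate block, wild type seedlings in place of ntrc seedlings, and each library left out.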

Additional observations from a re-analysis of the deposited data

How the results depend on the processing

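With no scaling beyond the deposited values 743 loci were higher and 11423 lower, and directions reversed for PP2AA3 (-1.19), LHCA6 (-1.33), LHCA5 (-1.36), ACT8 (-1.24), HEMA1 (-0.30), LHCB7 (-1.05), VTL2 (-1.04), CSD2 (-0.22), SAND (-1.09), NTRC (-0.16), CCA1 (-1.13), SS2 (-0.15), ACT2 (-1.03), ASN1 (-0.31) and CHE (-0.30). Under this setting the median of all tested loci shifted to -1.31. Median ratio scaling reversed LHCB1.3 (0.55) and RBCS1A (0.22), and wild type seedlings reversed NTRC (-1.73). Adjusted p alone gave 5860 higher and 6380 lower, a minimum difference of 2 gave 704 and 711, and the highest 10000 loci gave 1174 and 1284. Without loci that overlap another locus or are at least 50% identical to an organelle genome, an alternative chosen after seeing the data, 1145 were higher. Leaving out 1 library at a time gave 1766 to 1906 higher and 1986 to 2165 lower. Counts under the other settings were within 1.5 times of the 1837 and 2085 reported.

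Same-numbered adult and seedling libraries did not deviate together (r over loci of 0.056, -0.058 and 0.033), so the numbers do not pair them. The fit with a replicate block gave 1834 higher and 2075 lower, and EXPA10, ASN1, LDOX, XTH18 and DFR were not called in it. Further calls were lost without 1 library: PSAD2 (-0.96) and MAF4 (-0.97) without the second ntrc seedling library, CSD2 (0.999) without the same library, CHE (0.99) without the first, LHCB1.2 (-0.90) and DIT1 (-0.99) without the first adult library, LSF2 (-0.998) without adult library 3 or ntrc seedling library 1, and FIT (-1.28) without adult library 2. HEMA1 was not called without the second adult (0.99) or the first ntrc seedling library (0.89), nor CPC without ntrc seedling library 2 (-0.99) or 3 (-0.95). Without 1 library 1 more gene was lower in the root tip list (adult library 1), and 1 more was higher in the trichome and nitrogen lists (adult library 2) and in the photorespiration list (adult library 3, or ntrc seedling library 1 or 2). CSD1 was at 0.98 with no call against wild type seedlings. The cause was not tested in any of these.

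No value here has a known depth because the table holds no counts, so how far low values are limited by depth was not tested.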

Other observations

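Other genes at the top of the differences, chosen after their values were seen, were also higher in ntrc adult leaves. WAK1, a receptor kinase anchored in the cell wall, stood at 97.8, 96.8 and 97.7 in leaves and at 40.4, 38.6 and 38.9 in ntrc seedlings, a log2 difference of 5.81 (SE 0.14). RD20, a lipid droplet protein induced by drought, stood at 98.3, 98.6 and 97.2 against 40.2, 15.3 and 35.8, with 1 seedling library listed at 0. LURP1, named for its response to downy mildew, stood at 97.7, 93.7 and 96.9 in leaves and was listed at 0 in all ntrc seedling libraries. PCR1 at 97.4, 92.4 and 97.3 and AT5G10760 at 97.3, 95.5 and 97.3 were listed at 0 in those seedlings as well. For LURP1, PCR1, WAK1 and AT5G10760 the second adult library was the lowest of the 3.

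Some loci were listed at 0 in every library of 1 group while they stood at percentile 75 or above in every library of the other, 47 of them at 0 in adult leaves and 33 at 0 in ntrc seedlings. RPL27AB and AT1G23300 overlap each other and had opposite patterns. RPL27AB was at 0 in all adult libraries and at 99.1, 98.9 and 99.0 in seedlings, and AT1G23300 was at 97.8 in each adult library and at 0 in all ntrc seedling libraries. The part of the overlap in these values was not tested.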
